A study of Mus musculus with 75 samples.

Results

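The genes described here are the 40 protein-coding mouse genes that encode voltage-gated sodium and calcium channels, out of 55401 gene identifiers counted in nuclei sorted from the nucleus accumbens. The rule that picks them reads gene symbols and no measured value, though it was set with earlier results of these data known: 10 sodium channel alpha subunits (the Scn genes ending in a), 4 sodium channel beta subunits (the Scn genes ending in b), 10 calcium channel alpha1 subunits (Cacna1 genes), 4 alpha2delta subunits (Cacna2d1 to Cacna2d4), 4 cytoplasmic calcium channel beta subunits (Cacnb1 to Cacnb4) and 8 gamma subunits (Cacng1 to Cacng8). All 40 were found in the counts, and all 40 passed the filter on low counts in every fit. Together they held between 0.518% and 1.18% of the counts of a library, with a median of 0.721%.

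The samples were nuclei from male mice that carried a Cre-dependent fusion of green fluorescent protein with ribosomal protein L10a (LSL-eGFP::L10a) and a Cre transgene, either D1-Cre or D2-Cre, which follow the genes of the D1 and D2 dopamine receptors. Every mouse carried the reporter, whatever its treatment. Mice received saline or cocaine (20 mg/kg, intraperitoneal) daily for 10 days, spent 30 days in the home cage without injections, and were killed 1 h after a challenge with saline or cocaine. The first letter of a group name gives the repeated injections and the second the challenge, S for saline and C for cocaine. D1_SS (10 libraries) and D2_SS (9) received saline only, D1_SC (9) and D2_SC (9) met cocaine first at the challenge, D1_CS (8) and D2_CS (10) had the repeated cocaine and a saline challenge, and D1_CC (10) and D2_CC (10) had both. The labels do not say whether a library is 1 mouse or a pool, and give no age, so p-values measure the spread between these libraries, part of which may be technical.

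Voltage-gated sodium channels open on depolarization and carry the upstroke of the action potential. Their alpha subunit forms the pore, and the beta subunits are single-pass membrane proteins that tune gating and bind other cell adhesion molecules. Voltage-gated calcium channels turn the same depolarization into calcium entry, which drives transmitter release, shapes firing and starts signals to the nucleus. Their alpha1 subunit sets the channel class, the alpha2delta and beta subunits carry the channel to the membrane, and several gamma subunits serve mainly as partners of AMPA-type glutamate receptors (transmembrane AMPA receptor regulatory proteins, TARPs). In medium spiny neurons, the projection neurons of the accumbens, these channels set the threshold for firing from a very negative resting potential and are known targets of dopamine receptor signalling.

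Depth and purity varied between libraries. Total counts ran from 19825 to 34870414 with a median of 14893119, 4 libraries (D1_SC 5, D2_CS 6, D2_CS 9 and D2_CC 10) held 1000000 counts or fewer and are left out of levels but not of tests, and 17 of 75 libraries failed a rule on depth, genes seen, receptor ratio and correlation. Reads on 1464 olfactory and vomeronasal receptor genes, which brain neurons are not known to use, gave each library a background density per kilobase. Spread over all genes, that density amounted to 45.9% ± 11.8 (SD, n = 10) of the counts in D1_SS, 23% ± 18 (SD, n = 9) in D1_SC, 56.6% ± 19.3 (SD, n = 8) in D1_CS and 45.6% ± 21.5 (SD, n = 10) in D1_CC. It was 43.8% ± 17.1 (SD, n = 9) in D2_SS, 34.2% ± 19.9 (SD, n = 9) in D2_SC, 35% ± 20.1 (SD, n = 10) in D2_CS and 40.8% ± 20 (SD, n = 10) in D2_CC. D1_SC 2, 4 and 9 stood at 5.61% to 8%, and D1_CC 3 at 4.02%, so that the share moved with the groups compared below. The receptor genes of the labels differed between the lines: over the 4 treatments Drd1 stood at 1.73 ± 0.26 and Drd2 at -3.23 ± 0.28 (log2 D1 minus D2, SE; edgeR, adjusted p = 5.28e-06 and 8.48e-14). Reads beside the receptor genes put 4 libraries labelled D1 (D1_CS 4, D1_CC 4, 9 and 10) on the D2 side. In the 10 cell type marker lists, 0 measured markers were at 0 counts throughout a group.

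The members lie in groups along the genome. In build mm10 with the gene spans of GENCODE M21, Scn3a, Scn2a, Scn1a, Scn9a and Scn7a fill chr2:65457118-66784914, and Scn10a and Scn11a are neighbours on chromosome 9. Scn2b and Scn4b sit side by side within 36.4 kb at chr9:45117782-45154152. Cacng7, Cacng8 and Cacng6 share 103 kb at chr7:3332955-3435667, Cacng1, Cacng4 and Cacng5 lie at chr11:107703218-107915055, and Cacna2d3 lies beside Cacna1d (chr14:28904943-30491455) and Cacna1c beside Cacna2d4 (chr6:118587240-119352407). The strand setting of the counting is not given in the sources used here, so reads of overlapping genes cannot be told apart. Scn2b is covered by an opposite-strand gene, Gm10684, over 100% of its span, Scn9a is overlapped over 42.8%, Cacng8 over 37.7% and Cacnb2 over 18.2%, and their values are uncertain to that extent.

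Upstream sequence is printed for 5 members that passed a test in the D1 line, below, chosen among those whose RefSeq start and M21 start lie close together. It was read from the RefSeq promoter table (GRCm38.p6), 5′ to 3′ on the gene's strand, and ends at the base before the gene's M21 start. Capitals mark matches, on either strand, to GGGCGG (the GC box bound by Sp1), GCGNGGGCG (the motif of Egr factors) or TGACG (the core of the cyclic AMP response element, CRE). Egr and GC box matches can overlap. The windows are chr2:24763153-24763402 (minus strand) for Cacna1b, the pore of N-type calcium channels, chr15:80286988-80287237 (plus strand) for Cacna1i, a T-type pore, chr5:15934441-15934690 (plus strand) for Cacna2d1, chr14:29721865-29722114 (minus strand) for Cacna2d3 and chr9:45117626-45117781 (plus strand) for Scn2b.
Cacna1b: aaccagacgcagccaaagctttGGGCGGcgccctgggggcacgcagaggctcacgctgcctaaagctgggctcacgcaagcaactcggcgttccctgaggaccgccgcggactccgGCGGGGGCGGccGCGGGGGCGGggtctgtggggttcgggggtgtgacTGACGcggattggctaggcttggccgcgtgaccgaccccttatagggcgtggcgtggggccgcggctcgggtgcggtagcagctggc
Cacna1i: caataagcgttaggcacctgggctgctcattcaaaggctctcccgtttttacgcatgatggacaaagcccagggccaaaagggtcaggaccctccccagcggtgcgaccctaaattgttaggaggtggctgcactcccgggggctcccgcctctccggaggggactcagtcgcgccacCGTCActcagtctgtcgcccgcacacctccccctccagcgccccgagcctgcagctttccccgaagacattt
Cacna2d1: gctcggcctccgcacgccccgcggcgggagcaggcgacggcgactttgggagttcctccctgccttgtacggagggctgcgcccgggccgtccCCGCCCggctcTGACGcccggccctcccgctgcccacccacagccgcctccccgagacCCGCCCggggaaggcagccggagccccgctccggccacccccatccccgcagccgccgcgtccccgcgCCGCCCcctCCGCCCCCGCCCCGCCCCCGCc
Cacna2d3: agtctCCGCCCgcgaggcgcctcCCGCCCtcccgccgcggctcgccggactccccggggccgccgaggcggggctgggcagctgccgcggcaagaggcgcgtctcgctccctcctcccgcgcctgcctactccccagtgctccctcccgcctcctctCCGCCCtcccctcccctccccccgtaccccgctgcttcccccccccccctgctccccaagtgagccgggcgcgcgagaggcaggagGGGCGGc
Scn2b: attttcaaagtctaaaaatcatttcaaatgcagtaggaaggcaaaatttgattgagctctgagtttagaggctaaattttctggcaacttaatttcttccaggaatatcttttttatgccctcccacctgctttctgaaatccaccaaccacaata

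The 4 calcium channel sequences printed are rich in G and C and that of Scn2b is not. The 250 bases before the RefSeq start held 72% G and C for Cacna1b, 62.4% for Cacna1i, 82.4% for Cacna2d1 and 80% for Cacna2d3. They held 38.4% for Scn2b, and the median was 52.4% over 32841 RefSeq promoters. The families do not divide this way at their RefSeq starts, with 66% for Scn4b and 39.6%, 48%, 51.6% and 52% for Cacna1d, Cacng8, Cacna1c and Cacna1e. The windows of Cacna1d, Cacng8 and Cacna1e lie inside the M21 gene spans, and 21 of the 250 bases of Scn4b lie before its M21 start. Cacna2d1 held 6 GC boxes, 2 Egr motifs and 1 TGACG, Cacna1b held 3, 2 and 1, Cacna2d3 held 4 GC boxes alone, and Cacna1i held 1 TGACG alone. None of these letters stood in the window of Scn2b. Over the 41 promoters of the 30 members matched to the table, 36.6% held GGGCGG against 32.7% of all promoters, 14.6% held GCGNGGGCG against 4.7%, 14.6% held TGACG against 17.8%, and 2.44% held the AP-1 motif TGANTCA against 6.75%. The full CRE, TGACGTCA, was in 0 of them and in 1.55% of all, and TATAAA in 4.88% against 12.4%. These shares are descriptions, with no test, and several promoters belong to 1 gene.

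Among all 40 genes the sodium channel beta subunits Scn4b, Scn2b and Scn3b held the first 3 places by level per length. Levels are FPKM over the whole gene span, introns included, compared over the 71 libraries with more than 1000000 counts. Without division by span, the D1_CC median per 1000000 counts was 485 for Cacnb2 (385 kb) and 141 for Scn4b (15.8 kb). Ranks between short and long genes thus depend on the measure. Scn4b, which carries the blocking particle of resurgent sodium current, stood first with a median of 5.98 FPKM, 20.1 times the background density of the same library, and was more than 2 times the background in 71 of 71 libraries. Scn2b followed at 3.33 FPKM (10.6 times), Scn3b at 2.78 (8.4 times), the pore gene Scn2a at 2.55 (8.05 times) and Cacnb1 at 2.14 (6.9 times). The highest single library reached 33.2 FPKM for Scn4b, so the spread of 1 gene over libraries, with a coefficient of variation of 75.4%, was wider than the step from 1 rank to the next.

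**Figure D1:**
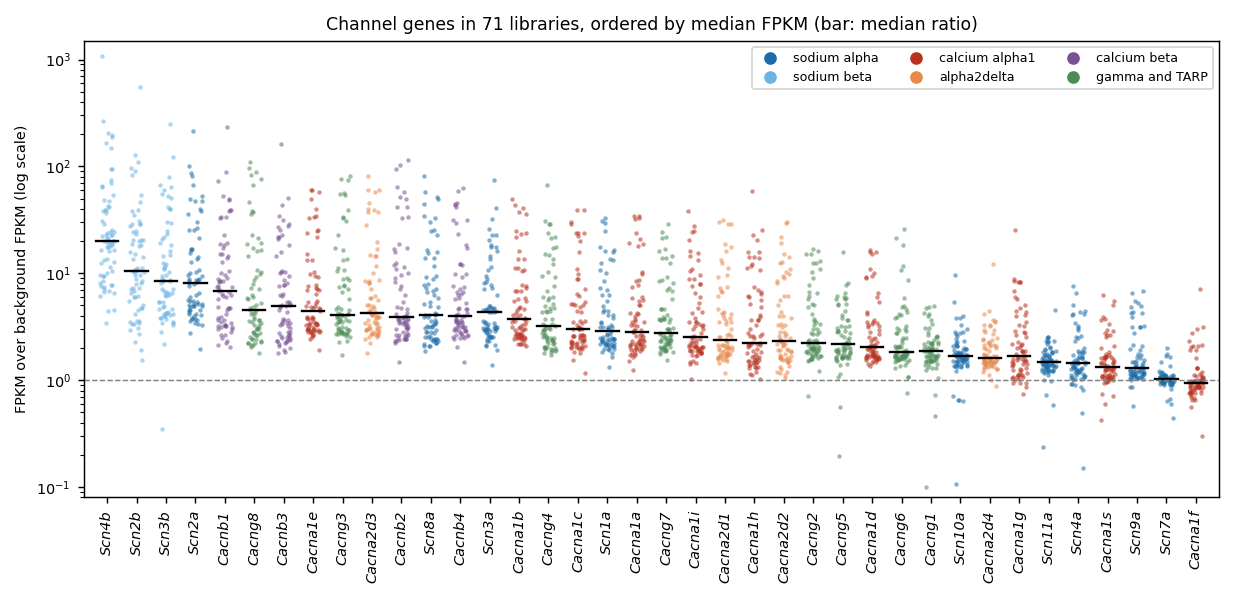
Level of 38 channel genes over the background density of the same library, on a log axis, in the 71 libraries with more than 1000000 counts (1 point each, coloured by family), with the median as a bar and genes ordered by median FPKM. Scn4b has a median of 20.1 times the background and Scn7a and Cacna1f lie at 1.02 and 0.942; values under 0.1 are drawn at 0.1.

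A broad middle of 10 genes lay between 1.32 and 1.55 FPKM, and neighbours there did not differ beyond their spread over libraries. It held the TARP genes Cacng8 (1.55) and Cacng3 (1.49), Cacnb3 (1.54), Cacnb2 (1.44) and Cacnb4 (1.42), the R-type pore Cacna1e (1.53), the N-type pore Cacna1b (1.32), Cacna2d3 (1.45), and the sodium pores Scn8a (1.44) and Scn3a (1.39). The L-type pores Cacna1c and Cacna1d, which couple calcium entry to gene activity in these neurons, stood lower at 1.04 and 0.717 FPKM, and the P/Q-type pore Cacna1a at 0.994. The T-type pores, which open near rest, came in the order Cacna1i at 0.94, Cacna1h at 0.822 and Cacna1g at 0.544.

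Genes known from peripheral tissues were at the bottom. Scn7a, a sodium sensor rather than a channel of the action potential, was at 0.362 FPKM or 1.02 times the background and exceeded 2 times the background in 0 of 71 libraries. The retinal Cacna1f was at 0.942 times the background, the skeletal muscle genes Cacna1s and Scn4a at 1.32 and 1.44 times, and the sensory neuron genes Scn11a and Scn10a at 1.47 and 1.7 times. In the 7 libraries whose background share was under 10%, the gap widened: Scn4b stood 43 to 1083 times over the background, Scn2a 47.7 to 215 times and Cacnb2 33.1 to 115 times, while Scn7a stayed at 0.641 to 2 times. Scn9a, at 1.29 times the background over all 71 libraries, was 3.93 to 6.87 times over it in these 7, though its span overlaps another gene. Cacna1g was 4.07 to 25.5 times over it there. Over all 71 libraries Cacna1f, Cacna1s and Scn9a exceeded 2 times the background in 9, 14 and 17.

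With the background density subtracted, each family had 1 or 2 leading genes. Shares below are of the summed level per length within a family, as the lowest, median and highest library of D1_SS (n = 10) and D2_SS (n = 9). A single value for a group is the median. Among sodium pores Scn2a held 18.5%, 36.8% and 45.5% in D1_SS and 27.8%, 40.4% and 44.6% in D2_SS. The medians of Scn3a, Scn8a and Scn1a were 19.5%, 15.7% and 10.6% in D1_SS and 18.5%, 18.5% and 12.8% in D2_SS. Scn3a is best known from the developing brain, and its share here overlapped that of Scn8a, the main pore of the axon initial segment.

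Scn4b held 45.1% of the beta subunits in D1_SS and 42.3% in D2_SS. Cacna1e and Cacna1b led the alpha1 genes, with 21.6% and 19.1% in D1_SS and 26.1% and 20.6% in D2_SS, ahead of Cacna1c (13.2% and 15.2%) and Cacna1a (11.5% and 11%). Cacna2d3 held 56.3% of the alpha2delta genes in D1_SS and 48% in D2_SS. Cacna2d2 held 4.16% to 30.8% (median 11.7%) in D1_SS and 14.6% to 41.8% (median 23.6%) in D2_SS, the widest gap in medians between the lines among these 4 genes, and the ranges overlap. Cacnb1 led the calcium channel beta genes with 37% and 35.3%. Cacng3 and Cacng8, which serve AMPA receptors, led the gamma family with 23.5% and 21% in D1_SS and 22.3% and 23.7% in D2_SS, while Cacng1, the muscle gamma subunit, held 5.17% and 5.36%.

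**Figure D2:**
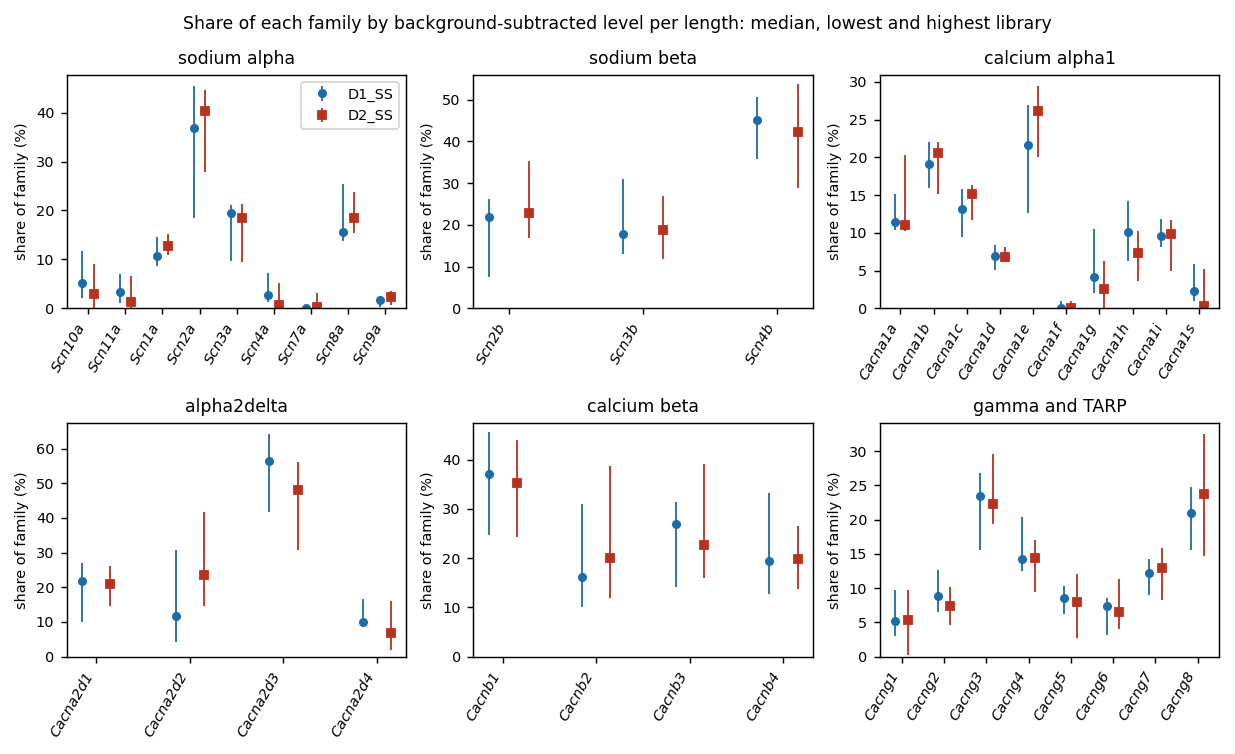
Share of each of 38 genes in its family's summed background-subtracted level per length (percent), as median with the lowest and highest library, in D1_SS (circles, n = 10) and D2_SS (squares, n = 9). Scn2a, Scn4b, Cacna1e, Cacna2d3, Cacnb1 and Cacng3 have the largest median of their families in D1_SS, at 36.8%, 45.1%, 21.6%, 56.3%, 37% and 23.5%.

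The comparison of D1 with D2 nuclei asked whether the 2 cell types differ in their channel genes. None of the 40 genes passed edgeR's quasi-likelihood test at an adjusted p of 0.05 in saline-only mice, where 0.0255% of 39250 genes passed, or over the 4 treatments, where 0.204% passed. At an unadjusted p under 0.05 there were 2 channel genes in saline-only mice and 7 over the 4 treatments. Over all 39250 genes there were 219 and 2372. limma with library weights called 9 over the 4 treatments, while DESeq2 called 0 there. The share of all genes that limma called is not given here, so the 9 are not read as a result about the members. The edgeR test in saline-only mice also missed known line markers. Drd1 (1.84 ± 0.51, log2 D1 minus D2, SE), Tac1 (1.26), Pdyn (2.02) and Penk (-1.88) did not pass there, while Drd2 (-4.35) and Adora2a (-2.56) did. Over the 4 treatments all of these markers passed. A lack of calls in saline-only mice is therefore no sign of equal levels.

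The members nearest to the threshold over the 4 treatments were Cacng6, Cacna2d2 and Cacnb2. Cacng6 stood at -0.62 ± 0.20 (log2 D1 minus D2, SE, adjusted p = 0.261), and its level was near the background in both lines. Cacna2d2, the alpha2delta subunit best known from cerebellar Purkinje cells, stood at -0.47 ± 0.15 (adjusted p = 0.277). In saline-only mice Cacna2d2 had 69.4, 84.8 and 143 CPM (counts per 1000000 counts of a library; lowest, median and highest library) in D1_SS and 90.2, 117 and 157 in D2_SS. The D2 median was the higher and the ranges overlapped, and the difference there was -0.61 ± 0.30 (adjusted p = 1). Cacnb2 stood at -0.56 ± 0.20 over the 4 treatments (adjusted p = 0.437). Of the 49 partner genes, a fixed list of channel-binding, anchoring and calcium signalling genes, 0 passed in either comparison, at 0 and 4 genes with an unadjusted p under 0.05 (edgeR).

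A first cocaine injection in the D1 line, D1_SC against D1_SS, was the comparison with the most channel genes past the threshold. edgeR called 14 of 40 higher and 0 lower (35%), against 9.7% of 37721 genes called higher, 1.64% lower and 11.3% in all. The calcium channel alpha1 genes supplied 7 of the 14 (7 of 10 measured) and the sodium channel genes 1, the pore Scn8a. The alpha2delta and calcium beta families gave 2 of 4 each and the gamma family 2 of 8. The median log2 change over the 40 was 0.59, against -0.07 over all genes and 0.44 over 2499 protein-coding genes longer than 100 kb, of which 38.7% were called. Of the 14, 11 are among the 20 members longer than 100 kb and 3 among the other 20. The members' 35% lies close to the 38.7% of long genes.

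Cacnb2, the beta subunit that carries calcium channels to the membrane and tunes their gating, had the largest change among the 40. Its CPM was 384, 483 and 626 (lowest, median, highest) in D1_SS and 414, 837 and 1721 in the 8 deep D1_SC libraries. Of those 8, 6 lay above every D1_SS library and the ranges overlapped at the low end, with D1_SC 4, 9 and 2 highest at 1721, 1601 and 1369. The fitted change was 1.69 ± 0.34 (log2, SE, n = 9 and 10, adjusted p = 0.00322).

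Cacng8, a TARP that holds AMPA receptors at the synapse, had 25.4, 37.6 and 42.6 CPM in D1_SS and 30.1, 65.1 and 123 in D1_SC, and 7 of 8 D1_SC libraries lay above every D1_SS library. It rose by 1.49 ± 0.35 (adjusted p = 0.00619), with the overlap of its span noted above. The TARP gene Cacng3 rose by 1.27 ± 0.32 (adjusted p = 0.00856), from 125, 154 and 190 CPM to 133, 228 and 357, with 5 of 8 above the saline range. Both are auxiliary subunits of glutamate receptors rather than of calcium channels in neurons. The other 6 gamma genes did not pass, and Cacng1 (-0.58), Cacng5 (-0.38) and Cacng6 (-0.14) had values on the negative side.

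Among pores, Cacna1e rose by 1.00 ± 0.27 (adjusted p = 0.0132), from 572, 732 and 908 CPM in D1_SS to 637, 891 and 1491 in D1_SC, with 3 of 8 above the saline range. Cacna1a rose by 0.86 ± 0.22 (adjusted p = 0.0096), from 248, 279 and 463 CPM to 308, 378 and 448, and no D1_SC library lay above the highest saline library. Cacna1c (0.82), Cacna1g (0.80), Cacna1b (0.79), Cacna1i (0.77) and Cacna1d (0.53) also passed, so that each class of calcium pore, from R, P/Q and N to L and T type, had at least 1 member called. Cacna1h (0.73, adjusted p = 0.117), Cacna1s (-0.04) and Cacna1f (-0.31) did not pass. Scn8a was the 1 sodium pore called, at 1.04 ± 0.32 (adjusted p = 0.0286), with 193, 251 and 264 CPM in D1_SS and 187, 360 and 436 in D1_SC. Of the D1_SC libraries 7 of 8 lay above every D1_SS library for Scn8a, and 1 lay below all of them.

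The remaining genes called higher were Cacna2d3 (1.08 ± 0.32), the alpha2delta subunit with the highest level, Cacna2d1 (1.01 ± 0.25), the binding site of gabapentin, and Cacnb4 (0.95 ± 0.27), with adjusted p of 0.0257, 0.00847 and 0.0177 (edgeR). Printed above, the upstream windows of Cacna1b, Cacna1i, Cacna2d1 and Cacna2d3 belong to this group. Of the 49 partner genes 26 were called higher and 0 lower, with a median of 0.76. The 4 with the smallest p were Unc79 (1.58), a subunit of the NALCN leak channel, Nedd4l (1.40), a ubiquitin ligase of sodium channels, Fgf12 (1.20), which binds sodium channel tails, and Rims1 (0.97), an active zone protein that binds calcium channel beta subunits.

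**Figure D3:**
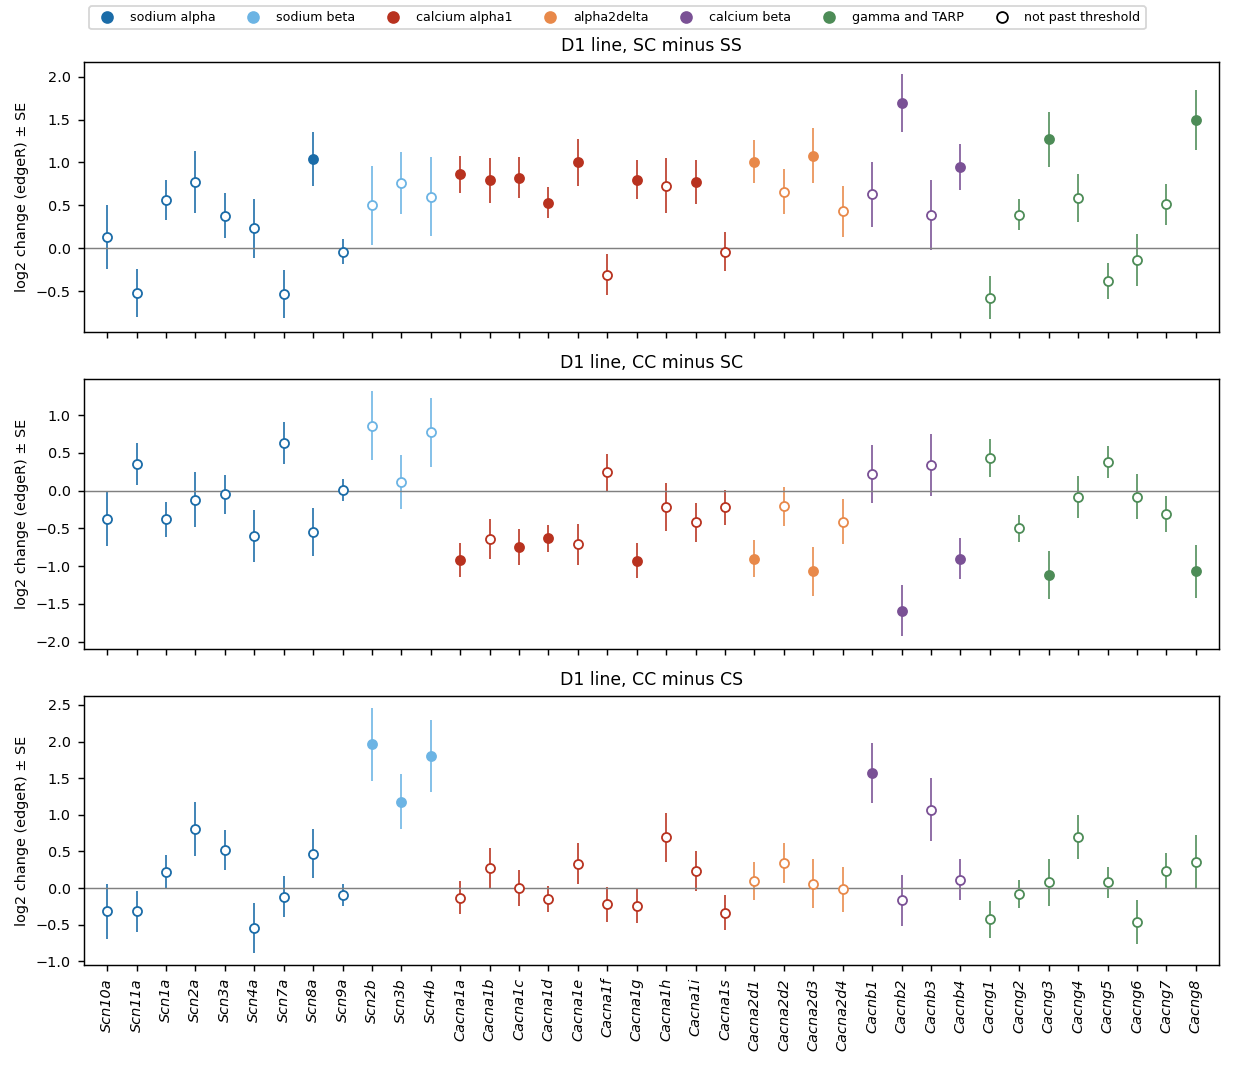
Fitted log2 change of each of 38 channel genes with its standard error (edgeR), in the D1 line, for SC minus SS (top), CC minus SC (middle) and CC minus CS (bottom). Filled points passed an adjusted p of 0.05 (14, 10 and 4 of the genes drawn) and colours give the family; the vertical scales differ between panels.

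These changes depend on how libraries were scaled and on a few libraries. TMM scaling factors had a median of 0.799 (0.522 to 1.1) in D1_SC and 1.12 (0.995 to 1.37) in D1_SS, and fitted changes exceeded the log2 ratio of mean CPM by a median of 0.59 over the members. The median log2 ratio of mean CPM was 0.04, with 21 of 40 above 0, and Cacna1d, called higher, had 308 CPM on average in D1_SC and 332 in D1_SS. With total counts as the only scaling, the median over all genes moved from -0.07 to -0.53 and that of the members from 0.59 to 0.04. Only Cacnb2 was then called (0.95 ± 0.22, adjusted p = 0.0324, edgeR; 0.00011 to 0.743 over 12 alternatives other than leaving out 1 library), and Cacna1d stood at -0.11.

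Without D1_SC 2, without D1_SC 4 or without D1_SC 9, 1 channel gene was called in each case. Without D1_SS 3 there were 4 and without D1_SC 5 there were 6. Over all genes the calls ran from 459 to 10348 when 1 library was left out. D1_SC 2, 4 and 9 had background shares of 8%, 5.61% and 5.81%. Long genes took 64.1%, 63.2% and 61.7% of their counts, against a median of 50.8% in D1_SS. With the background density as a covariate edgeR called 0 of the 14, and with background counts subtracted 1. In D1_SC the summed level of 7 astrocyte markers was 3.11 to 13.3 FPKM (5.12 to 13.3 in D1_SS) and that of 6 oligodendrocyte markers 2.82 to 34.1 FPKM (4.06 to 11.7 in D1_SS). The summed level of 9 interneuron markers had a median of 7.38 FPKM in D1_SC and 29.8 in D1_SS. The medians were 27.2 and 57.5 for 7 D1 neuron markers and 22.2 and 52.7 for 6 D2 neuron markers, with overlapping ranges. Over the background density of the same library the medians were instead higher in D1_SC. They were 10.9 and 10.2, 44.1 and 23.6, and 36.8 and 30.3 for these lists, so the direction depended on the measure. Drd2, the D2 dopamine receptor, rose by 1.56 ± 0.49 (adjusted p = 0.0332, edgeR) in D1_SC, while Drd1 stood at -0.23 and Penk at -0.54. The part of these markers in the result was not tested. Changes in the number of nuclei of a type and in the RNA per nucleus cannot be told apart in these bulk libraries.

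Shares within a family do not depend on the scaling of libraries. With the background subtracted, Cacnb2 held 10%, 16.2% and 31.1% of the calcium channel beta genes in D1_SS (lowest, median, highest library) and 9.27%, 30.7% and 41.6% in D1_SC. Cacng8 held 15.6%, 21% and 24.7% of the gamma family in D1_SS and 20.9%, 28.6% and 43.1% in D1_SC, and Scn8a 13.8%, 15.7% and 25.5% of the sodium pores against 15.9%, 22.5% and 25.4%. The medians were higher in D1_SC and the ranges overlapped for all 3 genes, which were chosen after their values were seen. Of the 14 genes called, 9 had a higher median share in D1_SC and 5 a lower one. The lower ones were Cacna1b (19.1% in D1_SS and 17.3% in D1_SC), Cacna1c (13.2% and 10.9%), Cacna1d (6.9% and 6.3%), Cacna2d1 (21.9% and 21.3%) and Cacna2d3 (56.3% and 53.5%). These shares had no test.

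**Figure D4:**
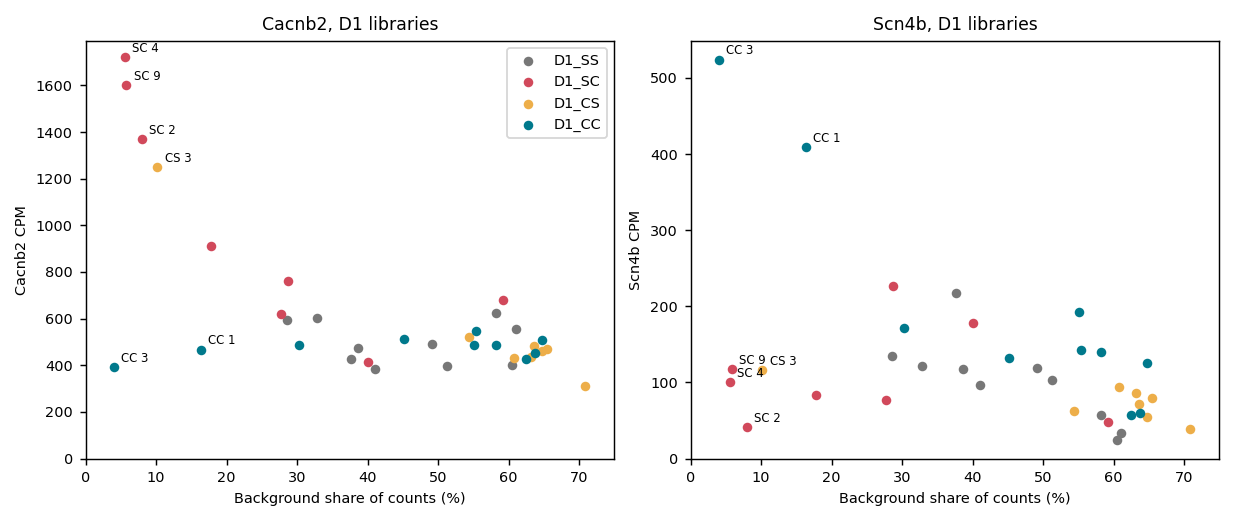
CPM of Cacnb2 (left) and Scn4b (right) in each D1 library with more than 1000000 counts, against the share of its counts that the background density accounts for (percent). D1_SC 2, 4 and 9 combine a background share of 5.61% to 8% with 1369 to 1721 CPM of Cacnb2, while D1_CC 1 and 3, at 16.4% and 4.02%, have the highest Scn4b (409 and 524 CPM) and 466 and 391 CPM of Cacnb2.

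The second comparison held the cocaine challenge constant and asked what prior cocaine changed: D1_CC against D1_SC. It uses the same D1_SC libraries as the first with the sign turned, so its calls are no separate evidence. edgeR called 0 of 40 higher and 10 lower (25%), against 2.62% of 37721 genes called higher, 7.86% lower, 10.5% in all, and 30.5% of genes over 100 kb. All 10 were among the 14 called in the first comparison, an overlap that the shared D1_SC libraries favour. It was not counted over all genes. The 4 not shared were Cacna1b, Cacna1e, Cacna1i and Scn8a.

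Cacnb2 fell by 1.59 on the log2 scale (SE 0.34, adjusted p = 0.00328). Its CPM in D1_CC was 391, 485 and 545, a narrow range beside the 414 to 1721 of D1_SC, and 1 D1_CC library lay below all D1_SC libraries. Cacna1a fell by 0.92 (SE 0.22, adjusted p = 0.00664), with 215, 262 and 319 CPM in D1_CC, and 9 of 10 D1_CC libraries lay below every D1_SC library. For Cacnb4 and Cacng3, 4 of 10 lay below all D1_SC libraries, and for Cacna2d3 none did. Cacng3 stood at -1.12, Cacng8 and Cacna2d3 at -1.07 each, Cacna1g at -0.93, Cacna2d1 and Cacnb4 at -0.90 each, Cacna1c at -0.75 and Cacna1d at -0.63.

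No sodium channel gene passed in this comparison. Scn2b stood at 0.86 (adjusted p = 0.189) and Scn4b at 0.77 (adjusted p = 0.236). Of the partner genes 1 was called higher and 22 lower, led by Fgf12 (-1.33), Rims1 (-1.07), Fgf14 (-1.66) and Rims2 (-1.46). With total counts as the only scaling the median over all genes moved from 0.19 to 0.52, and 4 genes were called lower: Cacnb2 (adjusted p = 0.00798), Cacng3 (-0.63), Cacna1a (-0.43) and Cacna2d1 (-0.41). Leaving out D1_SC 2, 4 or 9 left 1 call each, and leaving out D1_CC 3 gave 15. Over all genes the calls ran from 683 to 8900 when 1 library was left out. Among the D2 neuron markers, Penk, which encodes enkephalin, rose in D1_CC by 2.30 ± 0.62 (adjusted p = 0.0145, edgeR) and Adora2a, an adenosine receptor gene, by 1.22 ± 0.40 (adjusted p = 0.0437). The summed level of the 6 measured D2 neuron markers was 28.7, 173 and 308 FPKM in D1_CC and 12.2, 22.2 and 88.9 in D1_SC (lowest, median, highest). Drd1 stood at 1.10 (adjusted p = 0.144) and Drd2 at 0.67 (adjusted p = 0.33). D1_CC 4, 9 and 10 are among the 4 libraries labelled D1 that lay on the D2 side. Without those 4 libraries, 4 of the 10 calls remained. The part of these markers in the result was not tested.

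The third comparison was a cocaine challenge after cocaine history, D1_CC against D1_CS. edgeR called 5 of 40 higher and 0 lower (12.5%), against 8.28% of 37721 genes called higher, 0.0292% lower and 8.31% in all. Those described here are the sodium channel beta subunits Scn2b, Scn3b and Scn4b and the calcium channel beta subunit Cacnb1. None of the 4 was among the 14 of the first cocaine injection. The overlap over all genes was not counted, so this is not read as a result about the members. In that first comparison 38.7% of genes over 100 kb were called and 7.44% of those of 10 to 25 kb. These 4 are short genes, with spans of 12.3 to 22.4 kb. In D1_CC against D1_CS, 14.2% of 5295 protein-coding genes of 10 to 25 kb were called, and 0.44% of those over 100 kb. The members' 12.5% lies between the 8.31% of all genes and the 14.2% of these short genes.

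Scn2b, the beta subunit that pairs with pores through a disulphide bond, had 15.2, 32.3 and 41.8 CPM in D1_CS (lowest, median, highest) and 27.9, 58.3 and 208 in D1_CC, and 7 of 10 D1_CC libraries lay above every D1_CS library. It rose by 1.96 ± 0.50 (log2, SE, n = 10 and 8, adjusted p = 0.0171). Scn4b had 38.6, 75.8 and 116 CPM in D1_CS and 56.7, 141 and 524 in D1_CC, with 8 of 10 above the D1_CS range, and rose by 1.80 ± 0.49 (adjusted p = 0.0209). These neighbours within 36.4 kb both passed, and D1_CC 3 and D1_CC 1 were the highest libraries for Scn4b at 524 and 409 CPM.

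Scn3b rose by 1.18 ± 0.38 (adjusted p = 0.045), from 26.3, 49.1 and 72 CPM to 40.9, 67.3 and 173, with 4 of 10 above the D1_CS range. Cacnb1, the calcium channel beta subunit with the highest level per length here, had 23.6, 33.5 and 38.3 CPM in D1_CS and 23.4, 55.2 and 155 in D1_CC, with 8 of 10 above and 1 below the D1_CS range. It rose by 1.57 ± 0.41 (adjusted p = 0.0177). Cacnb3 (1.07, adjusted p = 0.126) and Scn2a (0.81, adjusted p = 0.217) did not pass, and Cacnb2 stood at -0.17.

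**Figure D5:**
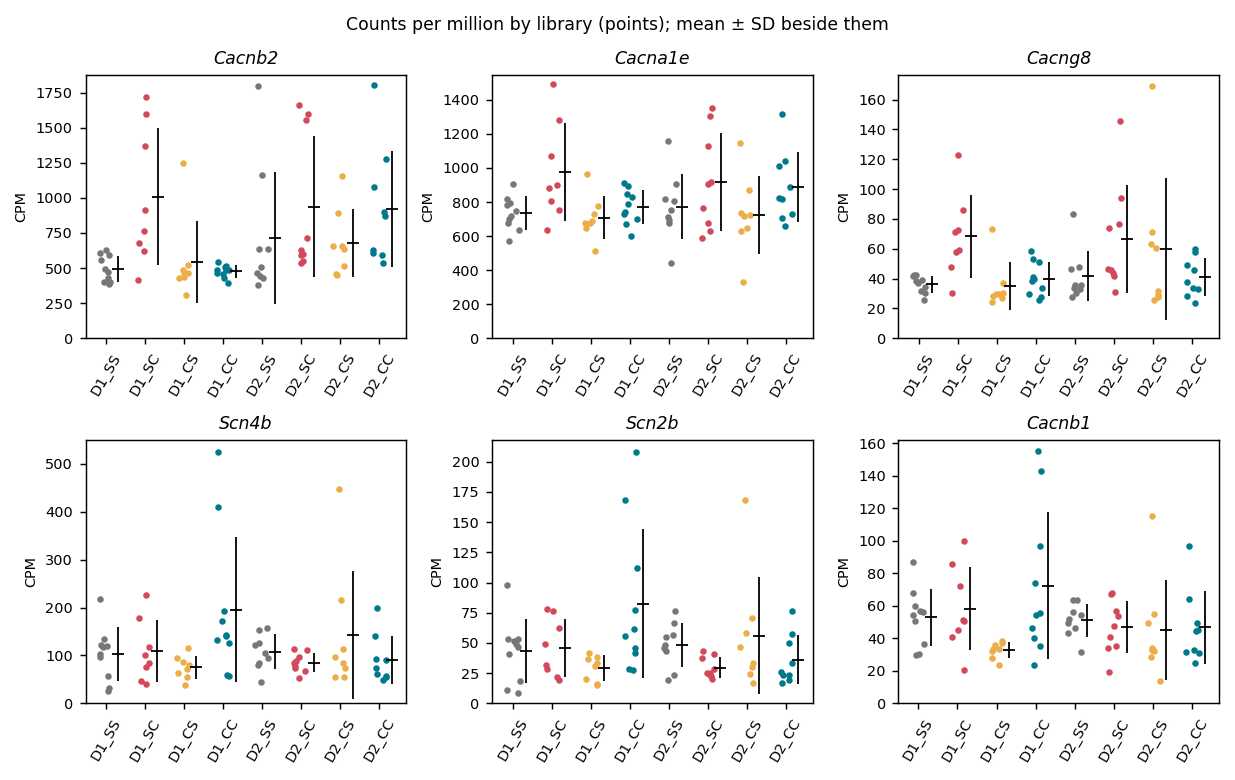
CPM of 6 channel genes in each library with more than 1000000 counts (points) in the 8 groups, with mean and SD beside them. Cacnb2, Cacna1e and Cacng8 are spread upward in D1_SC, where Cacnb2 reaches 1721 CPM, and Scn4b, Scn2b and Cacnb1 in D1_CC, where Scn4b reaches 524 CPM.

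Of the partner genes 8 of 49 were called higher in D1_CC, 0 lower. Among them were Calm3 (2.67) and Calm2 (2.04), which encode calmodulin, the calcium sensor of both channel families, and Rem2 (1.80), a small GTP-binding protein that inhibits calcium channels. Drd1 (1.81), Adora2a (1.53), Penk (2.09), Tac1 (1.93) and Pdyn (2.14) also passed, while Drd2 (1.08, adjusted p = 0.23, edgeR) did not. Markers of both kinds of medium spiny neuron thus moved with Scn2b, Scn3b and Scn4b. The 4 libraries labelled D1 that lay on the D2 side belong to D1_CC and D1_CS, most of them to D1_CC. The part of these libraries in the marker values was not tested. Without them, the 5 channel genes called all stayed past the threshold. The summed level of the measured D2 neuron markers (6 of 7) was 28.7, 173 and 308 FPKM in D1_CC and 13.3, 32.8 and 106 in D1_CS, and that of 10 medium spiny neuron markers 37.4, 87.6 and 256 against 23.6, 45.7 and 65.8. Astrocyte markers summed to 5.89 to 13.1 FPKM against 4.43 to 6.4. Their part in the result was not tested.

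D1_CC 1 and D1_CC 3 had long-gene shares of 38.6% and 34.1%, below every other D1 library. Without D1_CC 1 or without D1_CC 3, edgeR called 0 channel genes, and without D1_CS 3 it called 11. Over all genes the calls ran from 0 to 5700 when 1 library was left out. With failing libraries left out, with the background covariate, or with total counts as the only scaling edgeR called 0 channel genes. Scn2b, Scn3b, Scn4b and Cacnb1 were still above 0 in each. TMM scaling added a median of 0.17 to the log2 ratio of mean CPM here, and the all-gene median was -0.09 with it and -0.25 without.

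The same challenge without history of cocaine gave no call for these 4 genes in D1_SC against D1_SS, where Scn4b stood at 0.60 ± 0.46 and Scn2b at 0.50 ± 0.46. The test of that difference, the interaction of challenge and history, called 0 of 40 in the D1 line (edgeR), against 0% of 37721 genes. At an unadjusted p under 0.05 there were 11 of 40, against 6936 of 37721 genes. DESeq2 called 5 and edgeR with RLE scaling 2, with no all-gene count given here. Cacnb2 came closest at -1.87 ± 0.48 (adjusted p = 0.0527), then Cacna1a at -0.99 ± 0.31 (adjusted p = 0.074) and Cacna1g at -1.04 ± 0.33 (adjusted p = 0.0771).

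Cocaine history without a challenge, D1_CS against D1_SS, gave 0 channel genes by edgeR, against 0% of all genes. At an unadjusted p under 0.05 there were 0, against 1204 of 37721 genes. The median change was 0.03. limma with library weights called 21, of them 18 lower. The share of all genes that limma called is not given here, so the 21 are not read as a result about the members. Both exposures against none, D1_CC against D1_SS, gave 0 by edgeR against 0% of all genes. Of all 37721 genes, 2627 had an unadjusted p under 0.05, and 4 of the members did. These 4 were Scn4b (1.37 ± 0.45), Scn2b (1.36 ± 0.45), Scn3b (0.87 ± 0.35) and Cacnb1 (0.85 ± 0.37), each with an adjusted p of 0.695.

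In the D2 line no channel gene passed in any of the 6 comparisons by edgeR, where 0.0859% of 36090 genes passed in D2_CS against D2_SS, 0.252% in D2_CC against D2_CS and 0% in the others, and DESeq2 called 0 in each as well. Between 0 and 7 channel genes had an unadjusted p under 0.05, against 380 to 2853 of 36090 genes. In D2_SC against D2_SS the median over the 40 was 0.37, with 32 above 0 and 7 at an unadjusted p under 0.05. Of all 36090 genes, 1914 had an unadjusted p under 0.05. Of 2499 protein-coding genes over 100 kb, 1903 were above 0, with a median of 0.20. Cacna1a stood at 0.76 ± 0.26, with mean CPM of 399 in D2_SC and 284 in D2_SS, Cacng2 at 0.63 ± 0.22, Cacna1i at 0.72 ± 0.27 and Cacng8 at 0.96 ± 0.43, with adjusted p from 0.839 upward. The background share was also lower in D2_SC (34.2%) than in D2_SS (43.8%). limma with library weights called 13 here, 6 in D2_CS against D2_SS and 12 in D2_CC against D2_SS. The shares of all genes that limma called are not given here, so these counts are not read as results about the members.

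The response to a first cocaine injection was not shown to differ between the lines. The D1 change minus the D2 change, as 1 contrast, had 0 of 40 past the threshold (edgeR), where 0.028% of 39250 genes passed. The median over the 40 was 0.27. At an unadjusted p under 0.05 there were 2, against 2027 of 39250 genes. For the challenge after history the D2 line gave values on the other side for these 4 genes, none past the threshold. Scn4b stood at -0.95 ± 0.36 (adjusted p = 0.378), Scn2b at -0.90 ± 0.38 (adjusted p = 0.488), Cacnb1 at -0.27 ± 0.34 and Scn3b at -0.20 ± 0.40 in D2_CC against D2_CS. The library D2_CS 1 held the group's highest Scn4b at 448 CPM, against a median of 90.7. The difference between the lines in this contrast was not tested.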

How the data were processed

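Per the labels, RNA of sorted nuclei was made into stranded total RNA libraries. Per the submitters' processing notes the authors used featureCounts and DESeq2 with mm10; versions, annotation and strand setting are not given in the sources used here. Deposited tables held raw counts, which all tests used, and FPKM by the authors, which equalled count over total count over gene length. For 38 of the 40 members that length is the whole M21 span.

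edgeR 4.0.16 (R 4.3.3) fitted a quasi-likelihood model for each line, and 1 for both lines, with TMM scaling, filterByExpr and Benjamini-Hochberg adjustment over all genes (threshold 0.05). The scripts were tested on simulated data. CPM is count over total count. Background was the count density on 1464 receptor genes. Alternatives were RLE scaling, total counts only, no filter, DESeq2 1.42.0, limma 3.58.1 with library weights, background as a covariate or subtracted, a replicate block, and leaving out failing libraries or each library.

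A few genes of the lists entered every fit and count but are not reported here by name. Any other channel gene could be named, and up to 4 partner genes a comparison by smallest p. The members, lists and rules were chosen with earlier results of these data known. The labels do not say that replicate numbers pair libraries.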

Additional observations from a re-analysis of the deposited data

Results flagged for a closer look

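In 33 of 144 groups of 4 to 10 libraries tested for 18 channel genes (22.9%), 1 library stood farther from the others than Dixon's 95% limit allows. Chance flags about 1 in 20 groups, and the genes share libraries, so these are not 33 separate events. Their causes were not tested, and values are CPM.

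D1_CS 3, the D1_CS library with the lowest background share (10.2%), was the highest of its group for Cacna1a (444), Cacna1b (271), Cacna1c (946), Cacna1i (140), Cacna2d1 (549), Cacna2d3 (2523), Cacnb2 (1248), Cacnb4 (575), Cacng3 (298), Cacng8 (73.1) and Scn8a (414). For Cacnb2 the next library stood at 522. D2_CC 1 was the highest of its group for Cacna1c (1090), Cacna2d3 (2597), Cacnb4 (654) and Cacng3 (252). D2_SS 9 was the highest of its group for Cacna2d1 (568), Cacng3 (301), Cacng8 (83.5) and Scn8a (411).

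D2_CS 1 was the highest of its group for Scn4b (448), Scn2b (168), Cacnb1 (115) and Cacna2d3 (1730). Scn4b, Scn2b and Cacnb1 are among the genes called in D1_CC against D1_CS. D2_CS 4 was the highest for Cacna1b (338) and the lowest for Cacnb4 (102), and D2_CS 3 the highest for Cacng8 (169). Single cases were Cacna1a in D2_CC 2 (431), Cacna2d1 in D2_CC 9 (570), Scn3b in D2_SC 2 (145), Scn2b in D1_SS 5 (98.3), Cacna1g in D1_SS 8 (80.1) and D1_CS 7 (71.4), all highest, and Cacna1c in D1_CC 3 (415), lowest.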

How the results depend on the processing

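Counts below are channel genes past the threshold, and the cause of each change was not tested. With 1 library left out, all-gene counts ran from 459 to 10348 for D1_SC against D1_SS and 683 to 8900 for D1_CC against D1_SC. They ran from 0 to 5700 for D1_CC against D1_CS and 0 to 2517 for the D1 interaction. All-gene counts are not given for the other alternatives, so no result about the members is read from those. D1_SC against D1_SS, 14 with the planned fit, gave 9 with RLE scaling, 0 with the background covariate and 1 with background counts subtracted. It gave 1 with total count scaling (where Cacna1d stood at -0.11). Without the failing libraries and D1_SC 4 it gave 0, and with the covariate and no failing libraries 0. Of the 14, 13 remained without the failing libraries alone, 12 with DESeq2, 12 with limma and 11 with no filter. Leaving out 1 library gave 1 (without D1_SC 2, 4 or 9) to 18 (without D1_SC 6). D1_CC against D1_SC, 10 with the planned fit, gave 29 with limma and library weights, 4 without failing libraries, 0 without them and D1_SC 4, 5 with the covariate (2 of the 10), 0 with the covariate and no failing libraries, 4 without the 4 libraries on the D2 side, 2 with background subtracted, 4 with total count scaling and 1 to 15 with 1 library left out. D1_CC against D1_CS, 5 with the planned fit, gave 2 with RLE, 8 with limma, 0 with total count scaling, 0 with background as a covariate or subtracted, 0 in each fit without failing libraries, and 0 (without D1_CC 1 or 3) to 11 (without D1_CS 3) with 1 left out.

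The D1 interaction, 0 with the planned fit, gave 2 with RLE, 5 with DESeq2, 1 with the covariate, 1 with total count scaling and 0 to 3 (without D1_SC 7) with 1 library left out. limma called 21 in D1_CS against D1_SS, 13 in D2_SC, 6 in D2_CS and 12 in D2_CC against D2_SS, and 9 for D1 minus D2 over the 4 treatments, where the covariate without failing libraries gave 1. The 4 alternatives on libraries and subtraction and the total count scaling were added after seeing the data.

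Same-numbered libraries correlated at a median of -0.08 in D1 and 0.03 in D2, over 0.1 in 18 of 49 and 20 of 48 pairs. Single pairs ran from -0.66 to 0.76 in D1 and from -0.72 to 0.73 in D2, so whether replicate numbers mark pairs cannot be told. With the replicate block, D1_SC against D1_SS gave 6, D1_CC against D1_SC gave 4 and D1_CC against D1_CS gave 5. Whether depth or the background share limits the genes near the background was not tested.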
